A study of Mus musculus with 23 samples.

Results

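The comparison described here is that of PS19 mice given a virus expressing LSD1 with PS19 mice given a control virus, in hippocampal poly(A) RNA. Its members are the 3 libraries titled PS19_rescue and the 3 titled PS19_HA, 6 of the 23 libraries of the study, chosen by their titles. PS19 mice carry a transgene for human tau with the P301S mutation and are a widely used model of tauopathy. All 6 libraries come from C57BL/6 mice at 11 months of age, and their genotype label is PS19 tg with LSD1 +/+, so both alleles of the mouse gene are intact in both groups. An adeno-associated virus with neuronal expression was injected into the hippocampus. It carried LSD1 in PS19_rescue and HA, as a control, in PS19_HA. A further 3 libraries of wildtype mice with the HA virus (WT_HA) shared age, strain and injection. They entered the same fit, and their levels are given as a reference. The labels do not say whether each library is a separate animal, how much virus was given or how long before dissection. P-values therefore measure only the spread between these libraries, which may be technical in part. Each group held libraries with Y-linked reads and libraries with Xist, so the libraries of a group cannot all be from the same animal.

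LSD1, the product of Kdm1a, removes methyl groups from lysine 4 of histone H3 and acts mainly as a repressor. It works in the CoREST complex together with the histone deacetylases HDAC1 and HDAC2, and the factor REST brings this complex to neuronal genes in cells that should not express them. Neurons of the adult brain need LSD1, and the study's title ties its inhibition to tau. The virus adds LSD1 messenger RNA to neurons, and the comparison asks how the hippocampal transcriptome of a tau mouse differs when LSD1 is supplied.

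Kdm1a makes several transcripts, and neurons include a short exon that other cells skip. The stretch around it is printed because the counts analysed here are per gene and hold both forms, as well as any viral copy that aligns to the same exons. Of 9 Kdm1a transcripts in GENCODE release M21 of build GRCm38, 1 holds the exon of 12 bases at chr4:136563438-136563449 on the minus strand, and 3 join the same neighbouring exons without it. Capitals mark the short exon, with 24 bases of coding sequence on either side.
Kdm1a-208, with the neuronal exon: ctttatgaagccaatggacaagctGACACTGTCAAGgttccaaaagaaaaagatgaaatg
Kdm1a-203, without it: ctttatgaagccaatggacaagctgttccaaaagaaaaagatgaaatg
The tables do not separate these forms, so every Kdm1a value below is their sum.

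Some properties of the libraries bear on every value. Counted reads ran from 21715577 to 23644702 in PS19_HA. In PS19_rescue they were 16579034 in replicate 1, 23109478 in replicate 2 and 24644977 in replicate 3. Mitochondrial genes held 4.4% to 5.6% of reads in these 6 libraries. In WT_HA, which shares the fit, they held 4.9%, 16.2% and 5.6% in replicates 1 to 3, so replicate 2 stood apart. Replicate 3 of PS19_HA and replicate 1 of PS19_rescue had Y-linked reads, while the other 4 had Xist. Markers of hippocampal neurons, astrocytes, microglia and oligodendrocytes were present in all 6 libraries. Markers of striatum and thalamus were higher in both libraries numbered 3. Levels are given as CPM, the reads of a gene per 1000000 counted reads after TMM scaling of the library sizes. Adora2a, a receptor of striatal neurons, stood at 10.6 CPM in PS19_HA replicate 3 and 16.4 in PS19_rescue replicate 3, against 1.26 to 2.08 in the other 4. Neocortex markers summed to 409 CPM in PS19_HA replicate 3 and 226 in PS19_rescue replicate 3, against 144 to 158 in the other 4. Fibcd1, a marker of CA1 pyramidal neurons, was at 5.37 CPM in PS19_HA replicate 3 and at 56.6 to 132 in the other 5. Among the 16195 genes averaging 1 CPM or more, PS19_HA replicate 3 lay at least 1 log2 unit above all the other 5 in 144 and below them in 172, the most of the 6 libraries. Leaving out a library numbered 3 turned or strongly moved many values. Both values are given for only a part of these, so a value given alone need not be stable.

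Kdm1a was higher in every library given the LSD1 virus than in any other, by a margin that differed several-fold among them. The gene (ENSMUSG00000036940, chromosome 4, 136550540 to 136602723 in GRCm38) stood at 64.7, 62.8 and 62.2 CPM in PS19_HA replicates 1 to 3. In PS19_rescue it stood at 10980, 3011 and 1785 CPM in replicates 1 to 3, which is 174, 47.6 and 28.2 times the PS19_HA mean. WT_HA lay at 67.5, 62.65 and 65.8 CPM, within a few CPM of PS19_HA. The groups did not overlap, and the highest PS19_rescue library held 6.15 times the level of the lowest. In reads, Kdm1a went from 0.00639% to 0.00661% of a PS19_HA library to 1.11%, 0.307% and 0.188% of the PS19_rescue libraries.

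The log2 difference of Kdm1a between the groups was 6.38 (SE 0.67, 3 libraries against 3). It passed with DESeq2 (log2 difference 6.40, adjusted p = 2.43e-18) and not with the main test, edgeR's quasi-likelihood test (adjusted p = 0.0895). An exact two-sided permutation test of log2 CPM gave p = 0.1, the smallest that 3 libraries against 3 allow. Leaving out either end of the range brought the gene past edgeR's threshold. Without PS19_rescue replicate 1 the difference was 5.25 (adjusted p = 0.000175 by edgeR), and without replicate 3 it was 6.79 (adjusted p = 0.00919 by edgeR). Over all edgeR alternatives run, its adjusted p ranged from 0.000175 to 1.

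**Figure D1:**
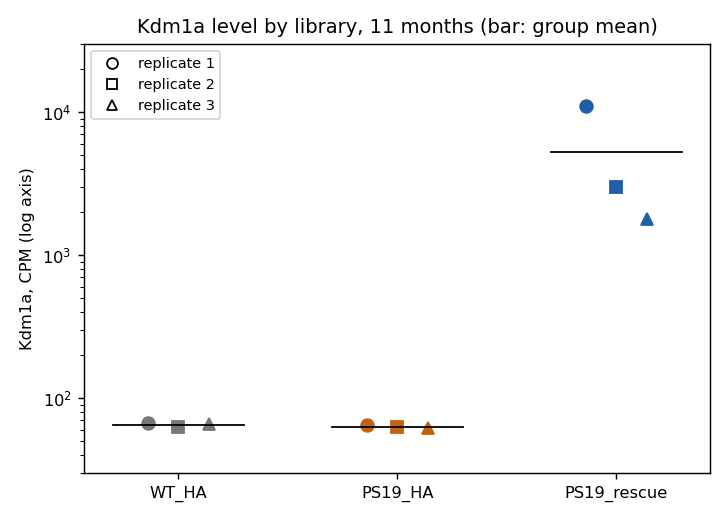
Kdm1a level in CPM on a log axis for each library of WT_HA, PS19_HA and PS19_rescue, with marker shapes for replicates 1 to 3 and a bar for each group mean. The 6 control libraries sit between 62.2 and 67.5 CPM, and the 3 PS19_rescue libraries between 1785 and 10980.

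The mouse genes that match the transgene and its promoter were read as a second check of the groups. Mapt, the mouse gene for tau, stood at 524, 544 and 551 CPM in PS19_HA and at 525, 501 and 548 in PS19_rescue, so the groups overlapped (log2 difference -0.04, SE 0.10). WT_HA stood at 508, 461 and 506 CPM and overlapped PS19_rescue, so Mapt did not set all 6 PS19 libraries apart from wildtype. Prnp, the prion protein gene that lends the PS19 transgene its promoter, stood at 1604, 1640 and 1480 CPM in PS19_HA and at 1756, 1614 and 1235 in PS19_rescue, against 628 to 736 in WT_HA. The 6 PS19 libraries were thus all above the 3 wildtype ones for Prnp, and the virus groups overlapped (log2 difference -0.04, SE 0.15). Its sign turned to 0.10 without PS19_rescue replicate 3. Reads of the human transgene are not told apart from those of the mouse gene in these tables.

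Across the transcriptome few genes other than Kdm1a passed a test between the LSD1 virus and the control virus. Of 19290 genes tested, edgeR called 0 (0%) at an adjusted p under 0.05, and 350 (1.81%) had an unadjusted p under 0.05. Among them 121 (0.627%) were higher and 229 (1.19%) lower in PS19_rescue. DESeq2 called 3 of 36923 genes (0.00813%), of which 1 was higher and 2 were lower. The adjusted p of edgeR rounded to 1 for every gene other than Kdm1a. The PS19_rescue libraries lay wholly above those of PS19_HA in 673 genes (3.49%) and wholly below them in 704 (3.65%).

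The precision behind this count was moderate. Over genes averaging 1 CPM or more the median SE of the log2 difference was 0.194, and the biological coefficient of variation of the fit was 0.243. A log2 difference above 0 was seen in 48.2% of genes and one below 0 in 51.8%, and the median over all genes was -0.01. Differences of the size of these errors were not detectable with 3 libraries a group, and far larger ones could be missed. The edgeR test did not call Kdm1a at a log2 difference of 6.38. The 350 genes with an unadjusted p under 0.05 were also fewer than the 964.5 expected if no gene differed. The lack of calls therefore does not measure how many genes differed.

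Both genes other than Kdm1a that DESeq2 called were low in the LSD1 group. Ighg1 encodes the constant region of the antibody IgG1. It stood at 0.451, 3.28 and 4.72 CPM in PS19_HA and at 0.0598, 0.255 and 0.0385 in PS19_rescue (DESeq2 log2 difference -4.55, SE 0.96, adjusted p = 0.0284). Its level in WT_HA was 0.0423 to 0.184 CPM, below every PS19_HA library. Gm5148, a predicted gene named after its values were seen, stood at 3.20, 2.71 and 3.46 CPM in PS19_HA and at 0.179, 0.0849 and 0.0769 in PS19_rescue (DESeq2 log2 difference -4.82, SE 0.93, adjusted p = 0.00422). WT_HA replicate 1 was also low, at 0.169 CPM, while replicates 2 and 3 read 4.22 and 3.40, so this gene split libraries within a group that had no LSD1 virus.

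**Figure D2:**
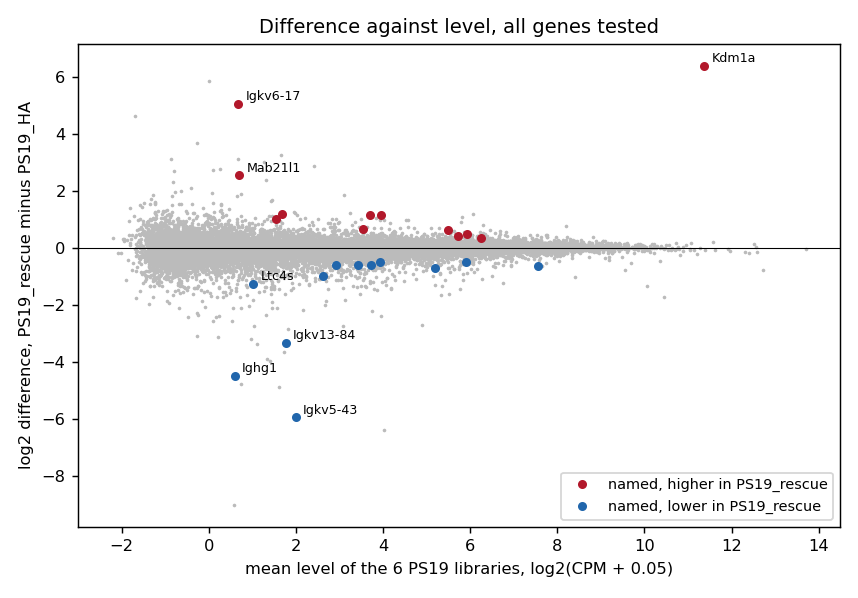
Log2 difference of PS19_rescue minus PS19_HA against the mean level of the 6 libraries for every gene tested. Genes named as higher or lower without overlap are in colour. Kdm1a stands at 6.38, and the next widest coloured genes are Igkv5-43, Igkv6-17, Ighg1 and Igkv13-84, immunoglobulin genes at low levels. Wide differences at higher levels include C3 (-2.73), Clec7a (-2.74) and Kl (-1.22), with PS19_HA means of 51.4, 14.6 and 152 CPM, all with overlapping groups.

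The genes with the lowest p among those higher in PS19_rescue and without overlap, other than Kdm1a, passed neither test and are given as values. Tshz2, a zinc finger transcription factor, stood at 14.3, 7.57 and 7.12 CPM in PS19_HA and at 19.8, 18.8 and 25.2 in PS19_rescue (log2 difference 1.14, SE 0.26). Its WT_HA level was 21.1 to 25.6 CPM, near that of PS19_rescue. Stxbp5l, a tomosyn that restrains the fusion of synaptic vesicles, read 42.6 to 49.8 CPM in PS19_HA and 54.6 to 64.8 in PS19_rescue (0.41, SE 0.11). Dpysl3, a protein of growth cones, read 42.9 to 55.5 CPM and 78.0, 64.5 and 71.2 in the same order (0.48, SE 0.13). For these 3 genes the PS19_rescue libraries lay in or near the WT_HA range.

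Others in this direction covered membrane traffic, lipids and the matrix outside cells. Rab9b, a small GTPase of late endosomes, was at 25.4 to 44.8 CPM in PS19_HA and 50.0 to 60.2 in PS19_rescue (log2 difference 0.63, SE 0.19). Elovl6, which lengthens fatty acids, was at 62.7 to 72.9 and 78.3 to 90.2 CPM (0.33, SE 0.10). Vwc2l, a secreted protein with a von Willebrand domain, was at 4.72 to 10.6 and 14.3 to 19.7 CPM (1.15, SE 0.31). Adamts2, which trims procollagen, differed by 0.64 (SE 0.18) and Frem3, a matrix protein, by 1.00 (SE 0.29). Clec1a, a C-type lectin receptor, differed by 1.18 (SE 0.30). Mab21l1, a gene of embryonic development, was at 0.175 to 0.766 CPM in PS19_HA and at 1.91, 1.53 and 4.62 in PS19_rescue (2.54, SE 0.74). Igkv6-17, an immunoglobulin variable segment, had reads in 1 of 3 PS19_HA libraries, at 0.262 CPM, and in all 3 PS19_rescue libraries, at 0.717, 6.58 and 1.77.

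The genes with the lowest p among those lower in PS19_rescue and without overlap are likewise given as values. Abhd2, a lipid hydrolase, stood at 235, 256 and 198 CPM in PS19_HA and at 131, 122 and 192 in PS19_rescue (log2 difference -0.63, SE 0.18). Fabp5, a carrier of fatty acids, stood at 40.6, 42.0 and 53.6 CPM and at 28.3, 26.1 and 28.6 (-0.71, SE 0.21). Ltc4s, which makes leukotriene C4, stood at 1.79 to 3.74 and 0.807 to 1.54 CPM (-1.27, SE 0.36). Abhd2 and Ltc4s were also below PS19_HA in all 3 WT_HA libraries, while Fabp5 reached 54.9 CPM there. None of these genes passed edgeR or DESeq2.

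Ciart, a repressor of the clock, was at 13.8, 16.6 and 17.7 CPM in PS19_HA and at 9.92, 8.62 and 12.6 in PS19_rescue (log2 difference -0.62, SE 0.17). Usp2, a deubiquitinase whose level follows the clock, was at 63.9, 66.6 and 79.6 CPM and at 43.1, 52.2 and 54.4 (-0.49, SE 0.13). Met, the receptor of hepatocyte growth factor, was at 8.44 to 9.88 and 5.01 to 6.77 CPM (-0.61, SE 0.16). WT_HA lay at 5.68 to 6.23 CPM for Met, within the range of PS19_rescue. Pcdhga2, a clustered protocadherin, differed by -0.60 (SE 0.15), Vasn, a membrane protein that binds TGF-beta, by -0.50 (SE 0.15) and Hkdc1, related to hexokinases, by -1.0 (SE 0.29) and by -0.58 without PS19_HA replicate 3. Igkv5-43 and Igkv13-84, immunoglobulin variable segments, differed by -5.96 (SE 1.65) and -3.35 (SE 0.94).

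**Figure D3:**
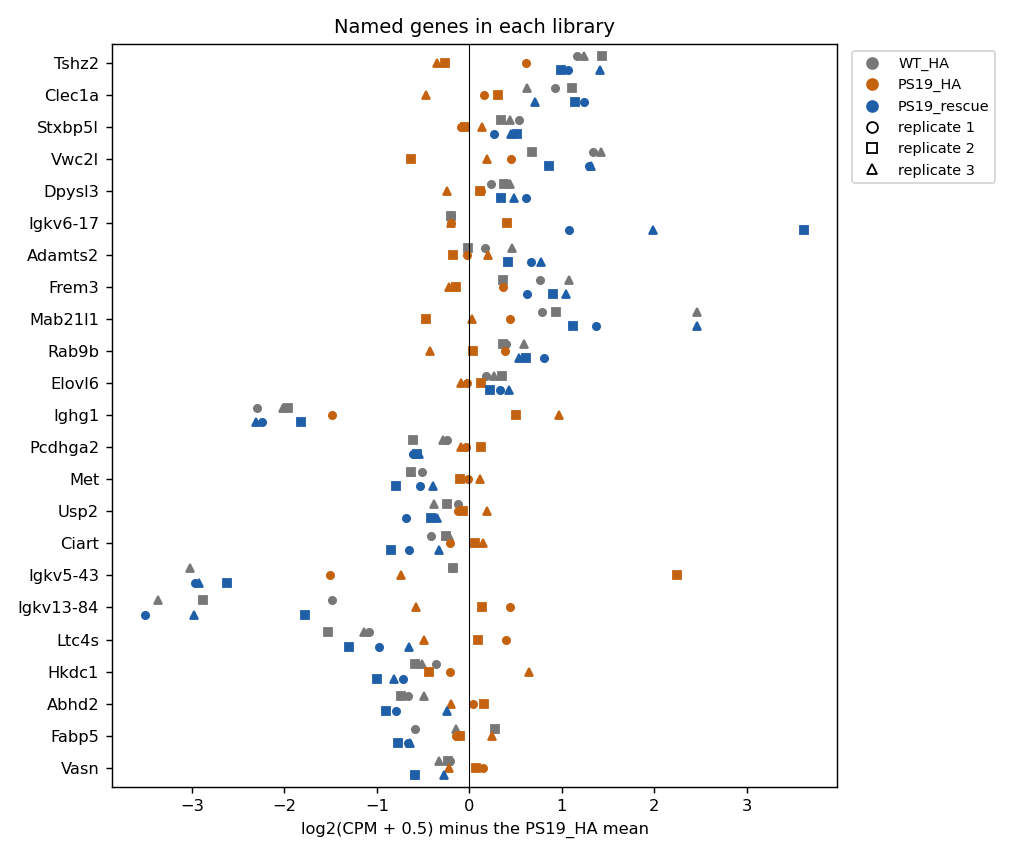
Level of each named gene except Kdm1a in the 9 libraries, as log2(CPM + 0.5) minus the PS19_HA mean, with colours for groups and shapes for replicates. By the rule for named genes, the blue PS19_rescue points lie wholly to the right of the orange PS19_HA points in the upper 11 genes and wholly to the left in the lower 12.

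Partners and opponents of LSD1 showed small differences. Of 14 genes of the LSD1-CoREST complex tested, Kdm1a not among them, 0 were called by edgeR or DESeq2, 11 were higher and 3 lower in PS19_rescue, and the median log2 difference was 0.06, against 48.2% higher and a median of -0.01 over all genes. Rest, which guides the complex to its sites, read 11.99, 13.9 and 13.5 CPM in PS19_HA and 8.61, 10.4 and 12.9 in PS19_rescue (log2 difference -0.30, SE 0.18). Hmg20b, a subunit, read 12.8 to 14.0 and 10.5 to 14.0 CPM (-0.16, SE 0.16). Zmym3, a zinc finger subunit, differed by 0.13 (SE 0.15). The groups overlapped for each of these genes. Without PS19_HA replicate 3 the median of the list was -0.003 and the difference of Zmym3 was -0.01.

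The other enzymes of histone H3 methylation were close to level between the viruses. Of 21 writers and erasers of lysine 4 and lysine 9 methylation, 12 were higher and 9 lower, with a median of 0.03 that ran from -0.06 to 0.07 when single libraries were left out. Kdm1b, the close relative of LSD1, stood at 13.5, 11.3 and 14.6 CPM in PS19_HA and at 11.4, 12.4 and 12.9 in PS19_rescue (log2 difference -0.10, SE 0.13). Kmt2b, a lysine 4 methyltransferase, stood at 76.4 to 80.7 and 66.6 to 75.8 CPM, and Kdm3b, a lysine 9 demethylase, at 68.0 to 72.3 and 66.5 to 67.4. In these 2 of the 21 enzymes the PS19_rescue libraries lay wholly below those of PS19_HA, where 3.65% of all genes did so. Their log2 differences were -0.13 (SE 0.09) and -0.08 (SE 0.08), near the size of their errors. Kmt2c, also a lysine 4 methyltransferase, differed by 0.11 (SE 0.11).

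Neuronal genes that REST regulates were higher in 15 of 20 cases with a median of 0.07, and 0 were called. L1cam, an adhesion molecule of axons, stood at 142, 124 and 130 CPM in PS19_HA and at 142, 140 and 151 in PS19_rescue (log2 difference 0.12, SE 0.10). Stmn2, which maintains axonal microtubules, stood at 243, 204 and 212 CPM and at 250, 242 and 227 (0.13, SE 0.11). Kcnh7, a potassium channel, was at 58.4, 80.4 and 200.3 CPM in PS19_HA and at 66.4 to 88.9 in PS19_rescue (-0.55, SE 0.38). Its sign turned to 0.16 without PS19_HA replicate 3. Of 15 pluripotency and stem cell factors, 11 passed the filter on low counts, 7 of them were higher, the median was 0.07 and 0 were called. That median turned to -0.06 without PS19_rescue replicate 3. Klf2, a Kruppel-like factor, read 4.33 to 5.51 CPM in PS19_HA and 3.14 to 4.36 in PS19_rescue (-0.36, SE 0.19).

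Genes of microglia in disease were lower in the libraries with the LSD1 virus, and the distance was far smaller without PS19_HA replicate 3. Disease-associated microglia are a state entered around protein aggregates and dying cells. Of 28 genes of this state 26 passed the filter, 25 of them were lower and 1 higher, with a median of -0.67, against 51.8% lower over all genes. None was called, 4 had an unadjusted p under 0.05, and in 0 did the groups separate. The mean level of the list was 3.35, 4.22 and 5.24 log2 CPM in PS19_HA replicates 1 to 3 and 3.61, 3.49 and 4.07 in PS19_rescue, with 2.70 to 2.89 in WT_HA. Replicate 1 of PS19_HA was thus below all 3 PS19_rescue libraries, and replicate 3 was well above them. The median was -0.10 without PS19_HA replicate 3 and -0.29 without both libraries numbered 3. In bulk RNA, fewer cells of a type and less RNA per cell cannot be told apart.

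Single genes had the same layout. Clec7a, a receptor for beta-glucans, read 1.49, 8.88 and 33.4 CPM in PS19_HA and 1.55, 1.40 and 3.50 in PS19_rescue (log2 difference -2.74, SE 0.92). Lgals3, a galectin, read 1.94, 3.46 and 9.55 CPM and 1.61, 0.934 and 2.31 (-1.62, SE 0.55). Apoe, a lipid carrier of astrocytes and microglia, read 1090, 1627 and 1860 CPM and 1035, 1025 and 1218 (-0.48, SE 0.20). In all 3 genes 1 PS19_HA library lay within the PS19_rescue range and the other 2 above it. Cd63, a tetraspanin of lysosomes, differed by -0.65 (SE 0.26). The differences without PS19_HA replicate 3 were -1.25 for Clec7a, -0.73 for Lgals3 and -0.31 for Apoe.

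Complement and Fc receptors followed, with 15 of 16 lower and a median of -0.61. C3, the central complement protein, stood at 6.58, 23.7 and 124 CPM in PS19_HA and at 7.77, 5.86 and 9.70 in PS19_rescue (log2 difference -2.73, SE 0.86). C1qb, a chain of C1q, stood at 24.2, 56.4 and 99.7 CPM and at 28.5, 28.7 and 43.0 (-0.85, SE 0.41). Fcgr2b, an inhibitory Fc receptor, differed by -0.77 (SE 0.39) and C3ar1, the receptor of C3a, by -0.88 (SE 0.47). Without PS19_HA replicate 3 these 4 were at -0.96, -0.27, -0.27 and -0.06 in the order named. The list's median was then -0.12, and it was -0.93 without PS19_HA replicate 1. None of the list was called, 1 gene had an unadjusted p under 0.05, and the groups overlapped in all 16.

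Homeostatic microglia genes, which mark microglia at rest, were lower in 10 of 12 cases with a median of -0.35 and -0.12 without PS19_HA replicate 3. Siglech, a lectin of microglia, read 15.7, 20.9 and 19.0 CPM in PS19_HA and 16.9, 12.9 and 14.0 in PS19_rescue (log2 difference -0.35, SE 0.15). Cx3cr1, the fractalkine receptor, read 46.5, 69.6 and 103 CPM and 58.3, 48.5 and 57.0 (-0.42, SE 0.24). P2ry13, a receptor of nucleotides, differed by -0.38 (SE 0.21). Without PS19_HA replicate 3, Cx3cr1 was at -0.09 and P2ry13 at -0.16, and without replicate 1 Cx3cr1 was at -0.66. The medians of the lists for microglia at rest and in disease were therefore both below 0, but not every marker followed. Tmem119, a marker of microglia, read 14.9, 17.6 and 17.1 CPM in PS19_HA and 19.4, 17.5 and 14.6 in PS19_rescue. P2ry12, another marker, read 40.0, 48.4 and 45.0 CPM and 45.5, 49.0 and 38.1. The groups overlapped in both markers.

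Reactive astrocyte genes were lower in 17 of 24 tested cases, with a median of -0.39, which was -0.12 without PS19_HA replicate 3 and -0.66 without replicate 1. Without PS19_rescue replicate 1 or 2 it was -0.27 or -0.25. Gfap, the intermediate filament of astrocytes, stood at 432, 1043 and 1370 CPM in PS19_HA and at 547, 469 and 631 in PS19_rescue, with 222 to 303 in WT_HA (log2 difference -0.79, SE 0.35). Cd44, the hyaluronan receptor, stood at 13.3, 20.9 and 34.5 CPM and at 10.9, 9.85 and 12.1 (-1.06, SE 0.33). The groups separated in Cd44, 1 of the 24 genes, where 3.65% of all genes separated in that direction. Tgm1, a transglutaminase, differed by -1.82 (SE 0.71) and Steap4, a metalloreductase, by -1.40 (SE 0.61). Gfap was at -0.43, Cd44 at -0.64, Tgm1 at -0.85 and Steap4 at -0.84 without PS19_HA replicate 3. Steap4 was at -2.30 without PS19_rescue replicate 3. Genes of the astrocyte core that mark astrocytes in any state had 8 of 13 lower and a median of -0.05, which was 0.002 without PS19_rescue replicate 2.

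A further list was drawn from the 9-month cohort, which shares no library with the 11-month one. At 9 months, 179 genes (0.772% of 23198) were higher in PS19 than in wildtype by DESeq2 at an adjusted p under 0.05. In that cohort mitochondrial genes held 33.9% of reads in WT replicate 3 and 16.1% in PS19 replicate 3. The other WT and PS19 libraries held 3.3% to 6.0%. All libraries of that cohort had Y-linked reads, unlike the mixed 11-month groups. At 11 months 170 of the 179 genes passed the filter, of which 139 were lower and 31 higher in PS19_rescue than in PS19_HA, with a median of -0.41. The mean level was 1.65, 2.65 and 3.19 log2 CPM in PS19_HA and 2.35, 2.05 and 2.16 in PS19_rescue, with 0.98 to 1.2 in WT_HA. The 3 PS19_rescue libraries thus lay inside the range of PS19_HA and above wildtype. Slc43a3, a transporter, differed by -1.52 (SE 0.51) and Pdpn, a membrane glycoprotein of reactive astrocytes and meninges, by -0.75 (SE 0.26). None of the 170 was called, 10 had an unadjusted p under 0.05 and all 10 of these were lower. The median was -0.02 without PS19_HA replicate 3, -0.06 without both libraries numbered 3 and -0.72 without PS19_HA replicate 1. Slc43a3 was at -0.86 without PS19_HA replicate 3.

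Interferon response genes were on the other side of 0, although many are expressed by microglia too. Of 27, 18 were higher and 9 lower with a median of 0.14, and 0 were called. The mean level of the list was 1.92, 2.76 and 2.57 log2 CPM in PS19_HA and 2.86, 2.65 and 2.04 in PS19_rescue, against 1.25 to 1.56 in WT_HA. Isg15, a ubiquitin-like protein that interferon induces, read 2.34, 3.50 and 2.11 CPM and 4.48, 4.59 and 2.42 (log2 difference 0.53, SE 0.34). Iigp1, a GTPase against parasites, read 5.90, 8.49 and 6.42 CPM and 19.0, 9.38 and 3.96 (0.63, SE 0.53), and turned to -0.06 without PS19_rescue replicate 1. Ifi27l2a and Bst2, both induced by interferon, were lower by values of -0.77 (SE 0.41) and -0.37 (SE 0.29). The list's median itself changed sign, to -0.08 without PS19_HA replicate 1 and -0.02 without PS19_rescue replicate 1. It was 0.30 without PS19_rescue replicate 3 and 0.08 without replicate 2.

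Antigen presentation genes were lower in 17 of 19 cases with a median of -0.18, which became 0.14 without PS19_HA replicate 3 and -0.44 without replicate 1. Without PS19_rescue replicates 1, 2 and 3 in turn it was -0.42, -0.10 and -0.05. Cd74, the invariant chain of class II, stood at 15.4, 43.9 and 111 CPM in PS19_HA and at 53.7, 21.0 and 30.2 in PS19_rescue (log2 difference -0.70, SE 0.62). H2-D1, a class I molecule, stood at 47.6, 82.0 and 150 CPM and at 93.9, 66.2 and 52.8 (-0.40, SE 0.38). Both turned sign without PS19_HA replicate 3, to 0.24 and 0.13. Most T cell genes were near the limit of detection, and 7 of 15 passed the filter. Their median was -0.33, which turned to 0.42 without PS19_HA replicate 3. Trbc2, a constant segment of the T cell receptor, read 0.0901, 0.744 and 8.13 CPM in PS19_HA and 0.239, 0.425 and 1.42 in PS19_rescue (log2 difference -2.05, SE 1.21). Cd3e, a part of the T cell receptor, read 0.135 to 1.06 CPM in PS19_HA and 0.170 to 0.598 in PS19_rescue.

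Neuronal genes differed little between the viruses. Presynaptic genes were higher in 3 and lower in 14 of 17 cases with a median of -0.04, and glutamate receptors and postsynaptic scaffolds were higher in 14 of 22 with a median of 0.04. Neither sign was stable: with single libraries left out the medians ran from -0.09 to 0.01 and from -0.07 to 0.18. Syn2, a synapsin of vesicles, read 560, 567 and 329 CPM in PS19_HA and 695, 597 and 436 in PS19_rescue (log2 difference 0.25, SE 0.23), with 0.03 without PS19_HA replicate 3 and 0.09 without PS19_rescue replicate 1. Stx1a, a syntaxin of vesicle fusion, read 58.7, 56.6 and 143 CPM and 62.6, 68.1 and 53.8 (-0.49, SE 0.33), with 0.09 without PS19_HA replicate 3.

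Markers of the hippocampal fields were mostly higher in PS19_rescue. CA1 markers were higher in 6 of 8 with a median of 0.28, CA3 markers in 7 of 8 with 0.20 and dentate granule markers in 5 of 9 with 0.06. The CA1 list stood at 6.21, 6.21 and 5.23 log2 CPM in PS19_HA and at 6.52, 6.36 and 5.79 in PS19_rescue, so PS19_HA replicate 3 was the lowest of the 6 and PS19_rescue replicate 3 the next. Without PS19_HA replicate 3 the medians were 0.01 for CA1, -0.03 for CA3 and -0.23 for the dentate gyrus. With other single libraries of the virus groups left out they ran from 0.10 to 0.44, from 0.06 to 0.36 and from -0.12 to 0.25. Ccn3, a matricellular protein of CA1, differed by 0.32 (SE 0.24), Wfs1, of the endoplasmic reticulum, by 0.27 (SE 0.32) and Gpr161, an orphan receptor, by 0.51 (SE 0.61). Elavl2, an RNA-binding protein in the CA3 list, differed by 0.15 (SE 0.14) and Calb1, the calcium-binding protein of granule cells, by 0.17 (SE 0.16). The values without PS19_HA replicate 3 were 0.10 for Ccn3, -0.01 for Wfs1, 0.03 for Gpr161 and 0.02 for Calb1. Striatal and thalamic markers, given with the libraries below, moved in the same 2 libraries, and their part in these values was not tested.

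Immediate early genes were lower in 16 of 20 cases with a median of -0.16. The median turned to 0.02 without PS19_HA replicate 3 and to 0.17 without both libraries numbered 3, and was -0.25 without PS19_HA replicate 1 and -0.26 without replicate 2. Npas4, a factor that neuronal activity induces, stood at 15.0, 6.17 and 11.2 CPM in PS19_HA and at 4.48, 7.05 and 4.69 in PS19_rescue (log2 difference -0.99, SE 0.31). Nr4a1, an orphan nuclear receptor, stood at 38.1, 36.5 and 55.3 CPM and at 36.8, 32.8 and 26.3 (-0.44, SE 0.19). Egr1 and Btg2, induced by the same stimuli, differed by -0.53 (SE 0.34) and -0.22 (SE 0.17). The groups overlapped in all 4 genes and none was called. Egr1 was at -0.04 and Nr4a1 at -0.22 without PS19_HA replicate 3, and Btg2 was at -0.10 without PS19_HA replicate 1 and -0.36 without replicate 2.

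Heat shock genes were the only list of 37, the 9-month list included, whose mean log2 level separated the groups, while 3.49% of single genes separated as higher and 3.65% as lower. The mean was 6.58, 6.67 and 6.56 log2 CPM in PS19_HA and 6.76, 6.76 and 6.71 in PS19_rescue. WT_HA replicates 1 and 3 read 6.62 and 6.63, within the PS19_HA range. WT_HA replicate 2, the library with the high mitochondrial share, read 6.92, above both groups. The summed level of the same list did not separate the groups, at 4276, 4133 and 3901 CPM in PS19_HA and 4197, 4500 and 4275 in PS19_rescue. Of 12 chaperones 11 were higher, with a median of 0.11 that stayed between 0.07 and 0.13 when single libraries were left out. Hspa1b, an inducible Hsp70, read 5.14, 7.17 and 3.90 CPM in PS19_HA and 11.9, 9.17 and 5.62 in PS19_rescue (log2 difference 0.72, SE 0.30). Dnajb1, an Hsp40 partner of Hsp70, read 30.4, 27.9 and 31.4 CPM and 37.9, 38.2 and 32.8 (0.28, SE 0.18). Dnaja1, another Hsp40, read 245 to 258 and 266 to 286 CPM (0.12, SE 0.11), and Hspa4l differed by 0.23 (SE 0.16). Hspa1b was at 0.45 without PS19_rescue replicate 1, and Hspa4l at 0.06 without PS19_rescue replicate 3. The groups separated in 3 of the 12. None was called, and 1 had an unadjusted p under 0.05.

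Oxidative phosphorylation genes were higher in 21 of 23 cases with a median of 0.06, which ran from 0.01 without PS19_HA replicate 2 to 0.10 without replicate 3. Ndufb8, a subunit of complex I, read 63.3, 62.2 and 59.7 CPM in PS19_HA and 67.2, 71.3 and 68.8 in PS19_rescue (log2 difference 0.16, SE 0.10), while Uqcrq, of complex III, differed by 0.11 (SE 0.11). Genes of the unfolded protein and integrated stress response were split, 9 higher and 10 lower, with a median of -0.01 that ran from -0.07 to 0.10 when single libraries were left out. Hspa5, the main chaperone of the endoplasmic reticulum, stood at 232, 251 and 174 CPM and at 250, 351 and 243 (0.36, SE 0.18). Xbp1, a factor of that response, differed by 0.30 (SE 0.16) without overlap, where 3.49% of all genes separated as higher. Atf3, of the integrated stress response, read 0.811, 2.01 and 5.61 CPM and 1.14, 0.977 and 1.42 (-1.25, SE 0.59), and was at -0.26 without PS19_HA replicate 3. Hspa5 was at 0.17 without PS19_rescue replicate 2 and 0.22 without PS19_HA replicate 3.

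**Figure D4:**
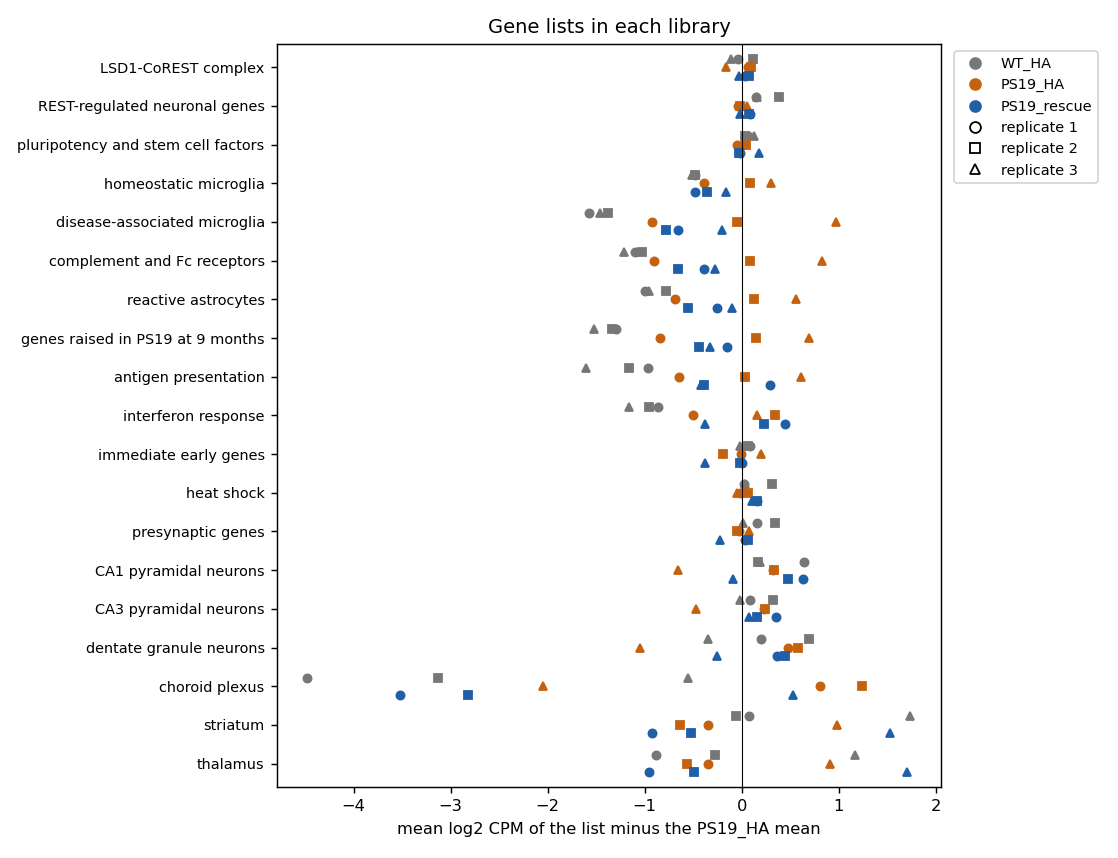
Mean log2 CPM of 19 gene lists in each library minus the PS19_HA mean, with colours for groups and shapes for replicates. In the disease-associated microglia, complement and reactive astrocyte lists the orange PS19_HA points run from replicate 1 on the left to replicate 3 on the right, and the blue PS19_rescue points lie between them.

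Markers of tissue beside the hippocampus also differed between libraries. All 12 choroid plexus markers tested were lower in PS19_rescue, with a median of -1.36 and 0 called. The median was -3.70 without PS19_rescue replicate 3, -4.20 without both libraries numbered 3 and -0.84 without PS19_HA replicate 2. Their summed level ran from 426 to 3969 CPM in PS19_HA and from 113 to 2256 CPM in PS19_rescue. Ttr, the carrier of thyroid hormone that the choroid plexus makes, read 2912, 3166 and 350 CPM in PS19_HA and 55.4, 132 and 1744 in PS19_rescue. The high libraries were thus replicates 1 and 2 of PS19_HA and replicate 3 of PS19_rescue. Kl (log2 difference -1.22, SE 0.87), Sostdc1 (-1.49, SE 0.98), Clic6 (-1.46, SE 1.18) and Cldn2 (-1.62, SE 1.35) were high in the same 3 libraries, and no marker of the list was at 0. Without PS19_rescue replicate 3 these genes were at -2.28, -2.68, -3.63 and -4.62 in the order named.

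Striatal markers were higher in 11 of 12 cases with a median of 0.29, and thalamic markers in 5 of 8 with 0.32. Without PS19_rescue replicate 3 these medians turned to -0.93 and -1.08, and without both libraries numbered 3 to -0.20 and -0.07. Without PS19_HA replicate 3 they were 1.02 and 0.69. The striatal median was 0.07 without PS19_HA replicate 1 and 0.05 without replicate 2, and the thalamic one was -0.001 and 0.01. The summed striatal level ran from 204 to 440 CPM in PS19_HA and from 182 to 615 in PS19_rescue, and the thalamic one from 164 to 484 and from 139 to 629. In each range the library numbered 3 was the high end. Of these markers Ido1, named after its values were seen, was at 0 in 1 library, PS19_rescue replicate 1. Drd2, a dopamine receptor, differed by 0.64 (SE 0.86) and Tcf7l2, a thalamic factor, by 0.96 (SE 1.10). Without PS19_rescue replicate 3 they turned to -0.82 and -0.97, and without both libraries numbered 3 to -0.36 and -0.02. Neocortex markers were lower in 6 of 8 cases with a median of -0.37, which turned to 0.24 without PS19_HA replicate 3. Markers of meninges were higher in 5 of 8 with 0.58, which turned to -0.50 without PS19_rescue replicate 3. Over the 36 fixed lists, 21 had a median above 0, and 13 had without PS19_rescue replicate 3.

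The 3 PS19_rescue libraries also allow a look at the amount of Kdm1a. A slope on the log2 Kdm1a level was fitted for every other gene within PS19_rescue, as the log2 change for each doubling of Kdm1a. Of 19289 genes, 0 (0%) were called by edgeR. A positive slope with an unadjusted p under 0.05 was seen in 120 genes (0.622%), and a negative one in 399 (2.07%). Slopes were positive in 47.2% of genes and their median was -0.01. Replicate 1 held the most Kdm1a, the fewest reads and the Y-linked reads, and replicate 3 the least Kdm1a and the most striatal and thalamic RNA. With 3 libraries these cannot be told apart from the Kdm1a level.

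The 5 genes with the lowest p for a positive slope were all highest in replicate 1. Col4a1, a collagen of basement membranes, read 172, 67.3 and 57.3 CPM in PS19_rescue replicates 1 to 3, against 37.4 to 69.2 in PS19_HA (slope 0.63, SE 0.14). Gbp8, a guanylate-binding protein induced by interferon, read 3.94, 0.594 and 0.50 CPM, against 0.610 to 0.721 (slope 1.2, SE 0.32). Rgs9bp, an anchor of a regulator of G proteins, read 3.23, 0.722 and 0.693 CPM, against 0.350 to 0.732 (slope 0.91, SE 0.21). In these 3 genes PS19_rescue replicates 2 and 3 lay in or near the PS19_HA range. Icosl, a costimulatory ligand, had a slope of 0.47 (SE 0.12) and Hsd17b7, of cholesterol synthesis, of 0.26 (SE 0.07).

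The 5 genes with the lowest p for a negative slope were all lowest in replicate 1. Olfr287, an olfactory receptor gene, read 0.598, 1.87 and 3.65 CPM in PS19_rescue replicates 1 to 3, with PS19_HA at 1.62 to 2.16 (slope -0.98, SE 0.16). Dubr, a noncoding RNA, read 4.06, 10.4 and 14.2 CPM, with PS19_HA at 6.51 to 7.04 (slope -0.69, SE 0.13). Zkscan7, a zinc finger factor, read 4.78, 8.24 and 10.7 CPM, with PS19_HA at 7.48 to 8.75 (slope -0.44, SE 0.10). In each the library with most Kdm1a was below the PS19_HA range and the one with least above it. Best1, a chloride channel, had a slope of -1.01 (SE 0.21) and Ctnna3, a catenin, of -1.08 (SE 0.25). The adjusted p of edgeR rounded to 1 for all 10 slopes.

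Gene lists differed in how they were ordered over the 3 libraries. Interferon response genes had positive slopes in 26 of 27 cases with a median of 0.25, and antigen presentation genes in 17 of 19 with 0.31. CA1 markers were positive in 8 of 8 (median 0.20), cholesterol synthesis genes in 17 of 18 (0.12) and glutamate receptors and scaffolds in 19 of 22 (0.11). Slopes were negative in all 12 choroid plexus markers (median -1.61), all 12 striatal ones (-0.84), all 8 thalamic ones (-0.91) and all 17 genes of oligodendrocytes and myelin. Neuronal lists were not alike: GABAergic markers were positive in 7 of 15 with a median of -0.02, and neurogenesis genes in 1 of 11 with -0.23.

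The genes around LSD1 itself did not follow its level as a list. LSD1-CoREST genes had 10 of 14 positive slopes with a median of 0.04, the REST-regulated genes 12 of 20 with 0.05 and the stem cell factors 5 of 11 with -0.01. Disease-associated microglia genes were positive in 7 of 26 (median -0.12), and complement and Fc receptors in 10 of 16 (0.02). Heat shock genes were positive in 6 of 12 with a median of 0.00. A fit with sex type as a covariate called 3 slopes, of Adamts19, Col11a1 and Foxp2, while every other setting called 0. These 3 were named after their values were seen, and in that fit the sex type is read from Y-linked and Xist reads.

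**Figure D5:**
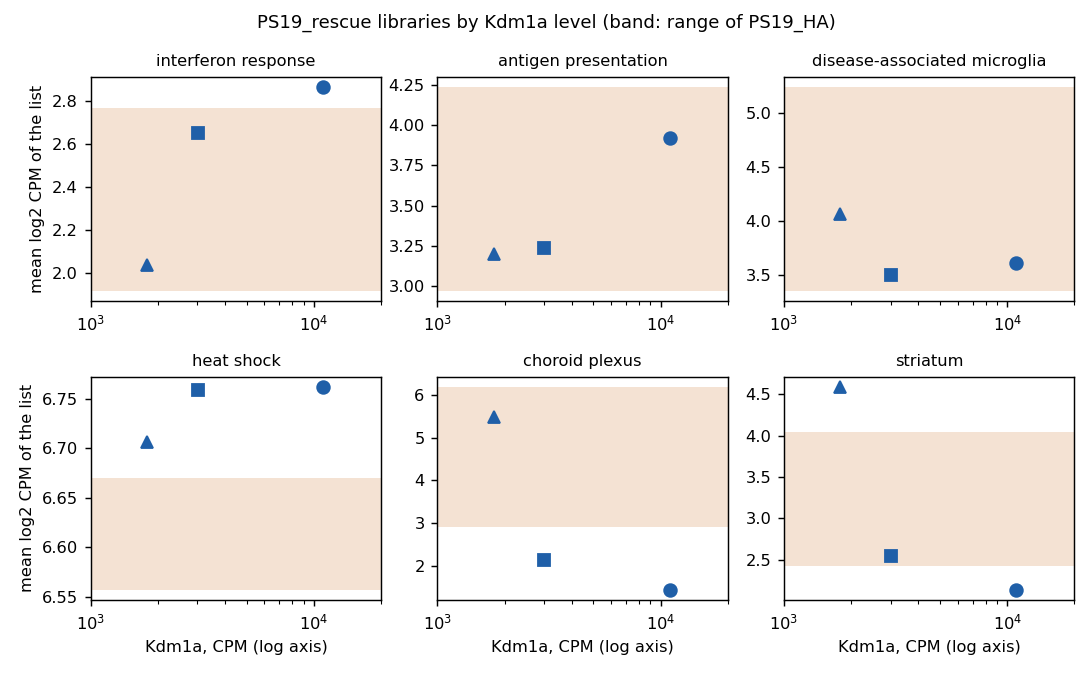
Mean log2 CPM of 6 gene lists in the 3 PS19_rescue libraries against their Kdm1a level on a log axis, with a band for the range of the 3 PS19_HA libraries. The interferon list goes from 2.04 at the lowest Kdm1a level to 2.86 at the highest, the striatal list from 4.59 to 2.14, and the heat shock points all lie above the band.

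PS19_rescue replicate 1, with the most Kdm1a, was also compared with the other 5 libraries gene by gene, and the genes named from this were picked after their values were seen. It lay at least 1 log2 unit above all the other 5 libraries in 8 of 16195 genes and below them in 55. Those above included Gbp8, Rgs9bp, Col4a1, Lrg1 (2.69 CPM against 0.577 to 0.849), an acute-phase protein, and Iigp1. Those below included Igkc, the kappa light chain, at 5.08 CPM against 24.7 to 125, Jchain, which joins antibody chains, at 2.93 against 10.7 to 43.7, and Kcnj13, a potassium channel of the choroid plexus, at 0.359 against 1.91 to 29.6. All 3 of these also varied at least several-fold among the PS19_HA libraries. PS19_rescue replicate 2 lay above the rest in 4 genes and below in 13, and replicate 3 in 61 and 8.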

How the data were processed

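Hippocampal poly(A) RNA was sequenced, and the authors deposited raw, whole-number read counts for each gene in a separate file for every library. The submitters' processing notes name featureCounts 1.6.0.6, HISAT2 2.1.0, Trimmomatic 0.36.5, FastQC 0.11.7 and the genome build GRCm38. How strand and multiply aligned reads were treated is not given in the sources used here, so values of near-identical or overlapping genes, such as immunoglobulin segments and pseudogenes, are uncertain. Groups and replicate numbers came from the sample titles. GENCODE M21 named 54165 of 54232 gene identifiers.

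From these deposited counts TMM-scaled CPM and, with a prior count of 2, log2 CPM were derived. The main test was the quasi-likelihood F test in edgeR 4.0.16 under R 4.3.3 (TMM, robust, filterByExpr by group with a minimum count of 10 and a minimum total of 15) on the 9 libraries of the 11-month cohort, with Benjamini-Hochberg adjustment and calls at an adjusted p under 0.05. The slope model added the log2 Kdm1a CPM of the PS19_rescue libraries, centred on their mean, to the groups. DESeq2 1.42.0 was the second tool, and its adjusted p was undefined for 20 genes. The scripts were tested on simulated data. Libraries of the same group all differed by more than sampling noise, with a chi-square per gene of 10.5 or more.

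Named genes were Kdm1a, Mapt and Prnp, up to 12 higher and 12 lower genes (called by DESeq2, then by the lowest edgeR p, averaging 1 CPM or more without overlap), up to 4 members of a list by p, and the 5 lowest p of each slope direction. Sex markers, pseudogenes and predicted genes entered the counts but are unnamed unless stated. Some list members are not reported here. The comparison, the 36 lists and the rules were chosen with earlier results of these data known. Lists are described by counts and medians, with no test. Alternatives were the tool, the scaling, the filter, the samples in the fit, the replicate number as a block, sex type, mitochondrial genes and each replicate left out. Leaving out both libraries numbered 3 was added after the data were seen.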

Additional observations from a re-analysis of the deposited data

How the results depend on the processing

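The count of genes called between the viruses was 0 by edgeR under the other scalings, filters, samples and covariates, and 3 by DESeq2. When single libraries were left out it was 0 to 1: Kdm1a without PS19_rescue replicate 1 or 3, and Gm5148 without WT_HA replicate 1. The replicate numbers were not taken to pair the libraries, because the rule asked for a correlation over 0.1 in every same-numbered pair and these were 0.073, 0.13 and 0.24. As a hint from the data, libraries 1 and 3 correlated best with their own number and library 2 did not. With the replicate block edgeR called 0 genes. The log2 difference of Kdm1a was 5.246 to 6.79 when single libraries were left out and 6.395 by DESeq2, which called it. The slope fit called 3 genes with sex type as a covariate and 0 otherwise. The number of lists with a median above 0 ran from 13 to 23 when single libraries were left out. The median of the 9-month list stayed below 0 in every setting run, from -0.72 to -0.02. Signs turned in some named genes that did not pass, and the cause was not tested. When single libraries were left out, Iigp1 ran over -0.05705 to 1.029, Prnp over -0.144 to 0.09784, Tcf7l2 over -0.9691 to 1.915, Drd2 over -0.8224 to 1.103, Zmym3 over -0.006142 to 0.2537, Kcnh7 over -0.8594 to 0.1567, Cd74 over -1.149 to 0.2351, H2-D1 over -0.7099 to 0.1297, Stx1a over -0.7153 to 0.09342 and Wfs1 over -0.0082 to 0.6727. Without both libraries numbered 3, Prnp was at 0.05437, Kcnh7 at 0.04332, Cd74 at 0.3294, H2-D1 at 0.3038, Stx1a at 0.1808, Tcf7l2 at -0.01754 and Drd2 at -0.3622. With 3 libraries a group and 16579034 to 24644977 reads each, single-gene differences near the median SE of 0.194 were not detectable. Far larger ones could also be missed, as Kdm1a was by the main edgeR test.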

Other observations

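Antibody genes were examined because Ighg1 was among the few genes called by DESeq2, so this group was chosen after values were seen and has no test. Of 10 tested genes of immunoglobulin constant regions and plasma cells, 9 were lower in PS19_rescue and 1 higher, with a median log2 difference of -0.99. Their summed level was 96.0, 423 and 292 CPM in PS19_HA replicates 1 to 3, 27.9, 214 and 195 in PS19_rescue and 96.9, 193 and 22.2 in WT_HA. The groups thus overlapped, and replicate 1 was the lowest library of PS19_HA and of PS19_rescue, while replicate 3 was the lowest of WT_HA. The groups separated in Ighg1, which prompted the list, and in none of the other 9. Igkc, the kappa constant region, read 24.7, 125 and 87.4 CPM in PS19_HA and 5.08, 62.8 and 59.7 in PS19_rescue. Ighm, the IgM heavy chain, read 25.2, 60.7 and 55.1 CPM and 10.9, 25.8 and 33.4. Of 44 variable segments in the fit, PS19_HA replicate 2 had the highest level in 19 and PS19_rescue replicate 1 in 0.

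Clock genes were examined because Ciart and Usp2 were among the genes named as lower, also after values were seen. Of 16, 7 were higher and 9 lower with a median of -0.05, and the groups separated in Ciart and Usp2, the genes that prompted the list, so nothing is read from this count. Dbp, an output gene of the clock, read 53.5, 55.7 and 65.4 CPM in PS19_HA and 35.8, 38.7 and 59.6 in PS19_rescue (log2 difference -0.38, SE 0.23). Nr1d1, a clock repressor, read 80.2, 93.2 and 117 CPM and 67.2, 63.5 and 94.0 (-0.37, SE 0.21). Arntl, the activator of the clock, read 30.5, 27.9 and 34.1 CPM and 31.7, 31.6 and 26.7.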
